A study of Mus musculus with 7 samples.

Results

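Expression of the genes for glucose uptake, glycolysis and the pentose phosphate pathway was compared between memory B cells (MBCs) and plasma cells (PCs). The 40 genes were chosen by function from the 48795 genes of the deposited table. They comprise 3 glucose transporters, 4 genes for hexokinases and glucose phosphate isomerase, 5 for the phosphofructokinase step, 9 for lower glycolysis, 4 for lactate dehydrogenase and lactate transport, 8 for pyruvate entry into mitochondria and 7 for the pentose phosphate pathway. Both cell types were sorted by flow cytometry from the spleens of wild type C57BL/6 female mice, 8 to 12 weeks old, 10 days after intravenous injection of sheep red blood cells, a T cell-dependent immunogen. MBCs were gated as B220+ CD138neg IgDneg CD38+ CD273+ (3 libraries, MBC1 to MBC3) and PCs as B220lo CD138+ IgD- (4 libraries, PC1 to PC4). No group carried a transgene or a deletion, and every mouse was immunised, so no resting control entered the comparison. The labels do not say whether the libraries of a group came from separate animals, and p-values therefore measure only the spread between these libraries. Levels below are scaled TPM, that is, the deposited TPM values (transcripts per 1000000) after a further scaling that sets the typical gene to one level in all libraries.

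Glycolysis splits glucose into pyruvate in the cytosol. Transporters of the GLUT family bring glucose in, hexokinases trap it as glucose 6-phosphate, and phosphofructokinase commits it to the lower part of the pathway. Glucose 6-phosphate can instead enter the pentose phosphate pathway, which yields NADPH and ribose 5-phosphate. Pyruvate is either reduced to lactate or carried into mitochondria by the MPC1-MPC2 carrier and oxidised by pyruvate dehydrogenase, which the PDK kinases hold in check. In antibody-secreting cells glucose also feeds the sugar chains attached to antibodies, and import of pyruvate into mitochondria is known for its part in the survival of long-lived PCs.

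The libraries were not alike within the MBC group. All 7 PC marker genes rose in PCs, whereas among 8 markers of memory and mature B cells 5 fell in PCs and the other 3 (Cd38, Pdcd1lg2 and Ccr6) were called lower only without MBC3. MBC3 held Cd38 and Pdcd1lg2, which encode the gated proteins CD38 and CD273, at 6.77 and 2.59 scaled TPM, against at least 130.3 and 24.4 in MBC1 and MBC2. Across all genes tested, MBC3 correlated with the PC libraries at r of 0.70 to 0.78 and with the other MBC libraries at 0.68 to 0.69. MBC1 and MBC2 correlated with each other at 0.675, no more closely than either did with MBC3. Its summed level of 10 proliferation genes was 952 scaled TPM, above PCs (454 to 658) and above MBC1 and MBC2 (161 and 175). Its 7 germinal center B cell markers summed to 664 scaled TPM, against 244 and 270 in the other MBC libraries and 70.3 to 139 in PCs. MBC2 carried hemoglobin transcripts, with 9 erythroid markers summing to 4524 scaled TPM against 0.344 to 122 elsewhere. In these bulk samples, fewer cells of a type and less RNA per cell cannot be told apart. The sample titles begin with codes of 2 prefixes whose meaning the labels do not state, and MBC3 and PC4 alone carry the less frequent one. MBC1 and PC1, MBC2 and PC3, and MBC3 and PC4 share a code. Called members are also given without MBC3, and the members highest in MBC2 without that library.

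Of the 40 genes, 35 reached 1 TPM in at least 3 libraries and were tested, and a gene was called at a limma adjusted p under 0.05 with a log2 fold change of at least 1 in size. Mpc2 and Pdk2 rose in PCs and no tested member fell. These 2 of 35 make 5.71%, beside 6.41% of all 11573 genes called higher and 2.14% called lower in PCs, so the share of members called was close to the background. The median log2 fold change of the 35 members (PC minus MBC) was 0.46, beside 0.14 for all genes tested, and 24 members had a positive value. The excess of 0.32 over all genes was 0.19 without MBC1, 0.17 without MBC2 and 0.55 without MBC3. The 5 members not tested were Hk3, Pfkm, Eno2, Ldhb and Slc16a3. Pdk2 passed the filter through PC libraries alone, at 1.69 to 6.36 TPM in PCs against 0 to 0.2 in MBCs. A gene expressed only in MBCs had to reach 1 TPM in all 3 MBC libraries. Eno2, at 3.98, 19.4 and 0.32 TPM in MBC1 to MBC3, did not, so a fall in PCs could not be called for it. At an unadjusted p under 0.05, 4 of the 35 members passed (11.4%, beside 24.2% of all genes).

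**Figure D1:**
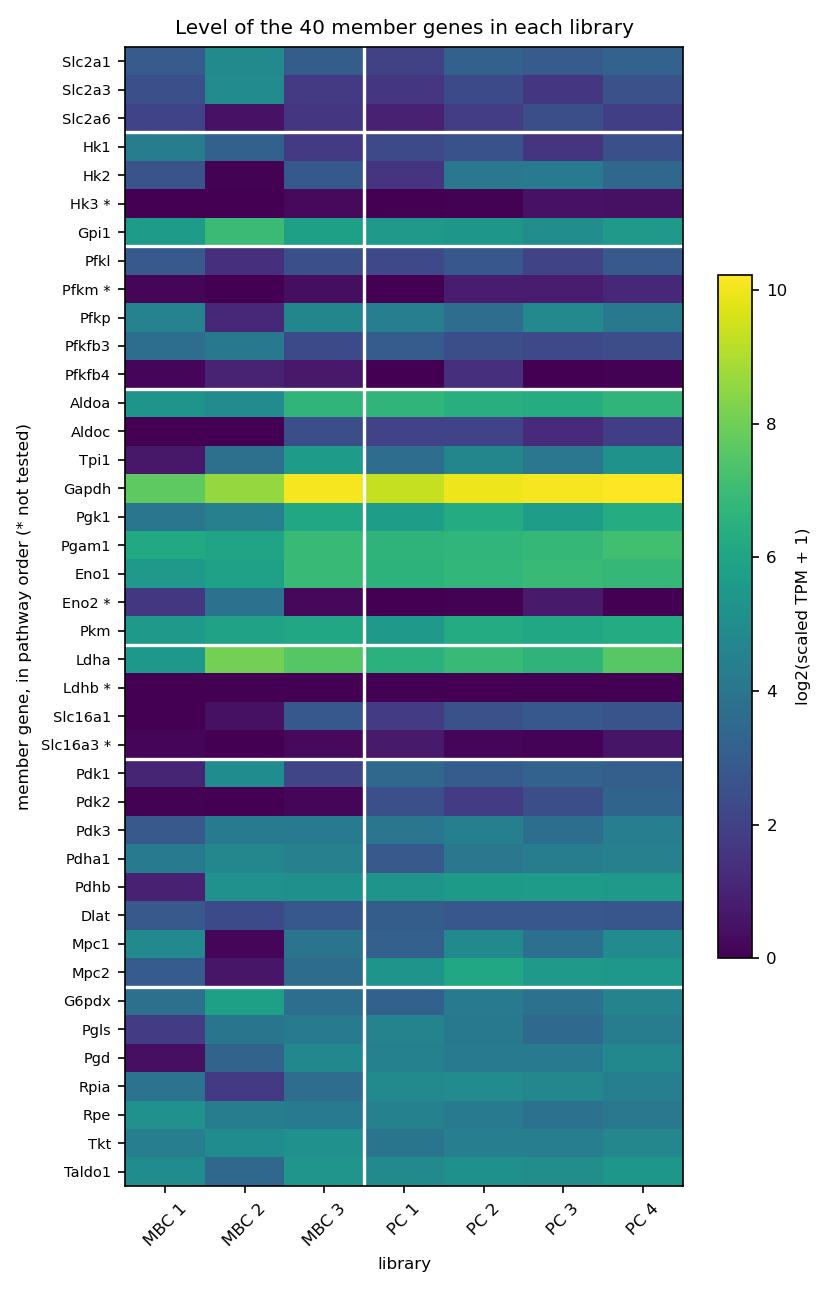
Level of the 40 genes, in pathway order, in each library, as log2(scaled TPM + 1), with white lines between the 7 steps and between MBCs and PCs. Gapdh was the brightest row, and the lower glycolysis rows of MBC3 were closer in color to those of PCs than to those of MBC1 and MBC2.

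The 2 called genes act at the same junction, the entry of pyruvate into mitochondria. Mpc2 lies at chr1:165460637-165481214 on the plus strand of GRCm38 and encodes one subunit of the mitochondrial pyruvate carrier. Pdk2 lies at chr11:95026258-95041354 on the minus strand and encodes a kinase that inactivates pyruvate dehydrogenase. The stretches directly upstream of their start sites are shown because these are the called members, and those of Pgk1 and Ldha because both are textbook targets of the hypoxia-inducible factor, whose binding motif contains ACGTG. Each run holds the 250 bases before a RefSeq start site on GRCm38.p6, the first listed where there are several, 5′ to 3′ on the gene's own strand, with ACGTG and its reverse complement CACGT in capitals.
Mpc2, chr1:165461010-165461259, plus strand: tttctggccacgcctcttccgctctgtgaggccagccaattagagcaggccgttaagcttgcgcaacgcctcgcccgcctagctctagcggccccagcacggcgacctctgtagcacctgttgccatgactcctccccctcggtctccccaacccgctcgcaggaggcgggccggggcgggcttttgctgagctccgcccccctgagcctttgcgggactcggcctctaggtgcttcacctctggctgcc
Pdk2, chr11:95041372-95041621, minus strand: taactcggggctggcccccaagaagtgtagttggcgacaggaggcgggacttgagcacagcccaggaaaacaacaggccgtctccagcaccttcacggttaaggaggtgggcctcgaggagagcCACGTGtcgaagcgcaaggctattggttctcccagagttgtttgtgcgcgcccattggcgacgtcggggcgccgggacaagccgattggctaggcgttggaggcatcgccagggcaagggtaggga
Pgk1, chrX:106186850-106187099, plus strand: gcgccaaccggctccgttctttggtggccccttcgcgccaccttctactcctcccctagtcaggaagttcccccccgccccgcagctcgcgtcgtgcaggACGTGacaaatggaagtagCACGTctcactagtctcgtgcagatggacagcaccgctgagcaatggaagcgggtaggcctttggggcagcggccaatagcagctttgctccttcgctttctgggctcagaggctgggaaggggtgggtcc
Ldha, chr7:46845554-46845803, plus strand: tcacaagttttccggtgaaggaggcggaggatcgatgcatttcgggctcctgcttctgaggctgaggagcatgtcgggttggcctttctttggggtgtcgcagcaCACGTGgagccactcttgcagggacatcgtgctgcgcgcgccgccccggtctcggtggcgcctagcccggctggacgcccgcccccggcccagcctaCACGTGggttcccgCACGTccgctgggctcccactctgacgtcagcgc

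The Mpc2 stretch held no ACGTG on either strand, and the Pdk2 stretch held 1 CACGTG, in which the 2 overlapping matches fall together. The Pgk1 stretch held 2 separate matches and the Ldha stretch 5 matches, of which 4 fall in 2 copies of CACGTG. Pdk2 and Ldha each have a second listed start site, and neither second window held a match. Windows were present for 39 members (55 windows), and Slc2a3 had none. ACGTG occurred on either strand in 18 member windows (32.7%), beside 16.6% of all 32851 windows, CACGTG in 5 (9.09%, beside 6.02%) and TGACGTG, which contains ACGTG, in 4 (7.27%, beside 1.65%). These are matches of letters, and no binding was measured.

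Mpc2 stood at 6.89, 0.553 and 11.2 scaled TPM in MBC1 to MBC3, and at 38.4, 67.0, 43.7 and 43.1 in PC1 to PC4. The groups did not overlap, and the lowest PC library was above the highest MBC library, MBC3. The log2 fold change was 3.18 (SE 0.66, 95% interval 1.69 to 4.66, limma adjusted p = 0.0168), and it was 3.78 without MBC3 (adjusted p = 0.00653). The call was lost when PC2 or PC3 was left out (adjusted p = 0.0628 and 0.0534), on TPM as deposited (0.0820) and with no filter on low values (0.0685).

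Pdk2 stood at 0.0439, 0 and 0.0975 scaled TPM in MBC1 to MBC3, each under the level that 3 reads would give a transcript of 1 kb. In PC1 to PC4 it was 4.59, 2.51, 4.51 and 8.87 scaled TPM, so that the groups did not overlap. Against the highest MBC floor, 0.292 scaled TPM, the PC mean of 5.12 ± 2.68 (SD, n = 4) was at least 17.5-fold higher. The fitted log2 fold change was 2.45 (SE 0.49, limma adjusted p = 0.0145), and 2.48 without MBC3 (adjusted p = 0.0196). The fitted value depends on the pseudocount of 1 and is smaller than the bound because MBC levels are near 0. With 0.1 in its place it was 5.07. Within the libraries that share the more frequent title prefix (MBC1, MBC2 and PC1 to PC3) Pdk2 missed the threshold (adjusted p = 0.0524), and Mpc2 passed it (adjusted p = 0.0258). The Pdk2 call was also lost with no filter (adjusted p = 0.0742), with the title code as a block (0.0532) and under library weights (0.137).

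The other members at this junction were not called. Its other kinases went separate ways by library. Pdk1 read 1.09, 30.8 and 3.38 scaled TPM in MBC1 to MBC3 and 9.75, 6.78, 8.18 and 7.46 in PC1 to PC4, so that MBC2 alone exceeded the PCs and the other MBC libraries were below them. Without MBC2, the log2 fold change of Pdk1 moved from 0.44 to 1.57 (limma adjusted p = 0.116). Pdk3 was the most abundant of the 3 kinases in 6 of 7 libraries, at 6.27, 17.6 and 17.5 scaled TPM in MBCs and 15.4, 20.5, 11.8 and 19.8 in PCs. Pdk2 made up 0 to 0.59% of the TPM of the 3 kinases in MBC libraries and 8.45 to 24.5% in PC libraries.

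The carrier's second subunit, Mpc1, read 28.5, 0.148 and 14.4 scaled TPM in MBCs and 7.85, 27.7, 12.2 and 30.0 in PCs. It did not follow Mpc2, and its groups overlapped (log2 fold change 1.16, SE 1.02, limma adjusted p = 0.530). A processed pseudogene, Mpc1-ps, is 99.7% identical to Mpc1 over its full length and held 5.27, 90.8 and 19.4% of their joint TPM in MBC1 to MBC3 and 10.2 to 44.7% in PCs, so the split of reads between the 2 is uncertain. No such copy was found for Mpc2 or Pdk2. Pdhb, the beta subunit of the E1 enzyme of pyruvate dehydrogenase, read 0.894, 35.2 and 34.4 scaled TPM in MBCs and 38.6 to 49.96 in PCs, without overlap. The difference (1.76 on the log2 scale, SE 0.91, limma adjusted p = 0.278) came with one very low value, in MBC1. Pdha1, the alpha subunit, read 17.6 to 25.4 scaled TPM in MBCs and 6.23 to 20.8 in PCs, and Dlat, the E2 core, 3.85 to 6.20 and 5.62 to 7.02.

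In the pairwise view of all libraries, 4 of the 35 members lay higher in every PC library than in every MBC library: Mpc2, Pdk2, Pdhb and Rpia. They make 11.4%, beside 13.0% of all genes. Gpi1 alone lay lower in every PC library, 2.86% of members beside 8.68% of all genes. Neither share exceeded its background.

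**Figure D2:**
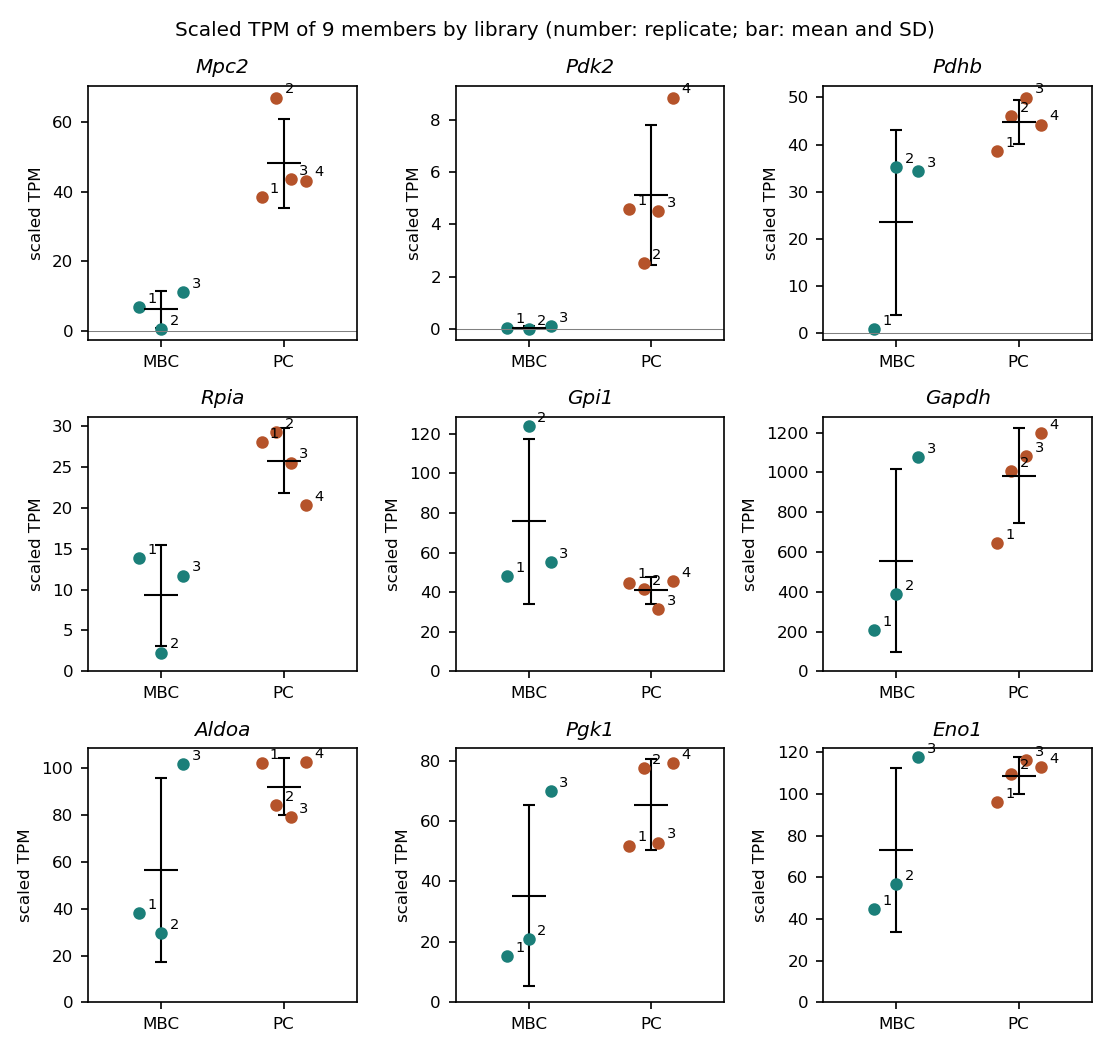
Scaled TPM of 9 members in each library, with the replicate number beside each point and the mean and SD of each group as black bars. Mpc2, Pdk2, Pdhb and Rpia did not overlap between groups, Gpi1 lay lower in PCs, and for Gapdh, Aldoa and Pgk1 the point for MBC3 lay among the PC points, and for Eno1 just above them.

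No glucose transporter was called. Slc2a1 encodes GLUT1, the main transporter of activated lymphocytes, and read 6.59, 28.1 and 7.04 scaled TPM in MBCs against 2.89, 7.82, 6.64 and 8.27 in PCs. Slc2a3, encoding GLUT3, read 4.69, 29.6 and 2.37 in MBCs against 2.05, 3.85, 2.10 and 4.85 in PCs. Both were highest in MBC2, the library with hemoglobin transcripts, and otherwise the groups overlapped.

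Their log2 fold changes were -0.79 (SE 0.62) and -1.05 (SE 0.76), and without MBC2 they were -0.15 and -0.11 (limma adjusted p = 0.893 and 0.926). The part of red cell RNA in this was not tested. Slc2a6, a transporter of lysosomal membranes, read 3.21, 0.404 and 2.05 scaled TPM in MBCs and 0.897, 2.60, 4.49 and 2.69 in PCs. Slc2a1 made up 51.8% ± 8.51 (SD, n = 3) of the TPM of the 3 transporters in MBCs and 51.7% ± 2.35 (SD, n = 4) in PCs.

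Of the hexokinases, Hk1 read 19.4, 8.01 and 2.30 scaled TPM in MBC1 to MBC3 and 3.95, 5.01, 1.98 and 4.64 in PC1 to PC4. Hk2, the isoform linked to high glycolytic rates, read 5.07, 0.0338 and 5.99 in MBCs and 1.92, 15.5, 18.1 and 9.72 in PCs. PC1 lay below 2 MBC libraries, whereas PC2 to PC4 were above all of them. Hk2 accordingly made up 20.8, 0.42 and 70.6% of hexokinase TPM in MBCs and 32.7, 75.5, 88.4 and 65.9% in PCs, and the difference of the means was 35.05 percentage points (exact two-sided permutation p = 0.2). Hk3, an isoform of myeloid cells, read 0, 0 and 0.200 scaled TPM in MBCs and 0, 0.0297, 0.406 and 0.390 in PCs. Gpi1, which turns glucose 6-phosphate into fructose 6-phosphate, read 48.3, 124 and 55.1 scaled TPM in MBCs and 31.3 to 45.6 in PCs, a difference of -0.76 on the log2 scale (SE 0.40) that did not pass the test (limma adjusted p = 0.282), and without MBC2 it was -0.34.

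At the phosphofructokinase step, Pfkp, the platelet-type isoform, was the most abundant in 6 of 7 libraries. It read 22.5, 1.28 and 24.6 scaled TPM in MBCs and 19.9, 11.5, 27.3 and 16.7 in PCs, so that MBC2 alone lay outside the PC range. Pfkl, the liver-type isoform, read 6.16, 1.68 and 4.71 in MBCs and 3.74, 5.93, 3.31 and 6.27 in PCs. Pfkm, the muscle-type isoform, read 0.137, 0 and 0.292 in MBCs and 0, 0.699, 0.750 and 1.24 in PCs. Both overlapped between the groups. Pfkfb3, which makes the activator fructose 2,6-bisphosphate, read 11.9, 16.5 and 3.97 scaled TPM in MBCs and 6.92, 4.49, 3.79 and 4.36 in PCs (log2 fold change -0.84, SE 0.56, limma adjusted p = 0.393). Pfkfb4, which encodes another isoform of that enzyme, read 0.110, 0.977 and 0.624 scaled TPM in MBCs and 0, 1.59, 0 and 0.0558 in PCs. A further isoform from a wider list of the pathway, Pfkfb2, rose in PCs, from 0.162 to 0.784 scaled TPM in MBCs to 2.44 to 9.83 in PCs (log2 fold change 2.13, SE 0.54, limma adjusted p = 0.0409, and 0.0325 without MBC3). That call was lost under 13 of 17 alternatives, with adjusted p up to 0.198.

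In lower glycolysis, MBC3 sat with the PCs. Gapdh, the NADH-forming step, read 206, 388 and 1076 scaled TPM in MBC1 to MBC3 and 644, 1007, 1081 and 1199 in PC1 to PC4. Pgk1, the first ATP-forming step, read 15.3, 20.9 and 69.8 in MBCs and 51.9, 77.5, 52.8 and 79.2 in PCs. Aldoa, the main aldolase, read 38.0, 29.7 and 101.5 in MBCs and 102.1, 84.1, 79.04 and 102.6 in PCs. In each of these, MBC1 and MBC2 were below every PC library and MBC3 was within the PC range.

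Eno1, the ubiquitous enolase, read 44.95, 56.6 and 117.9 scaled TPM in MBCs and 96.1, 109.8, 116.4 and 112.8 in PCs. Pgam1, phosphoglycerate mutase, read 73.0, 61.5 and 121.7 in MBCs and 100.3 to 137.6 in PCs. Aldoc read 0, 0 and 4.54 in MBCs and 3.19, 3.14, 1.35 and 2.71 in PCs. Eno1 and Aldoc were thus highest in MBC3, and the same order of MBC1 and MBC2 below PCs held. Tpi1, triose phosphate isomerase, read 0.565, 12.6 and 48.5 in MBCs and 11.7 to 35.8 in PCs, and Pkm, pyruvate kinase, 45.6 to 68.1 and 45.8 to 77.5. Eno2, the neuronal-type enolase, read 2.18 scaled TPM in MBC1 and 13.1 in MBC2, 0.156 in MBC3 and 0, 0.0446, 0.664 and 0 in PCs.

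With all 7 libraries, none of the 8 tested genes of lower glycolysis was called, although all 8 had positive log2 fold changes, from 0.20 (Pkm) to 1.15 (Pgk1). On TPM as deposited all of them but Aldoc were negative, and Gapdh was also negative after quantile normalization (-0.38). All-gene medians were -0.91 on deposited TPM and -0.06 after quantile normalization. Relative to the all-gene median, the median of the 8 was higher by 0.80 on scaled TPM, by 0.60 on deposited TPM and by 0.63 after quantile normalization. On scaled TPM this excess was 0.33 without MBC1, 0.48 without MBC2 and 1.39 without MBC3.

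**Figure D3:**
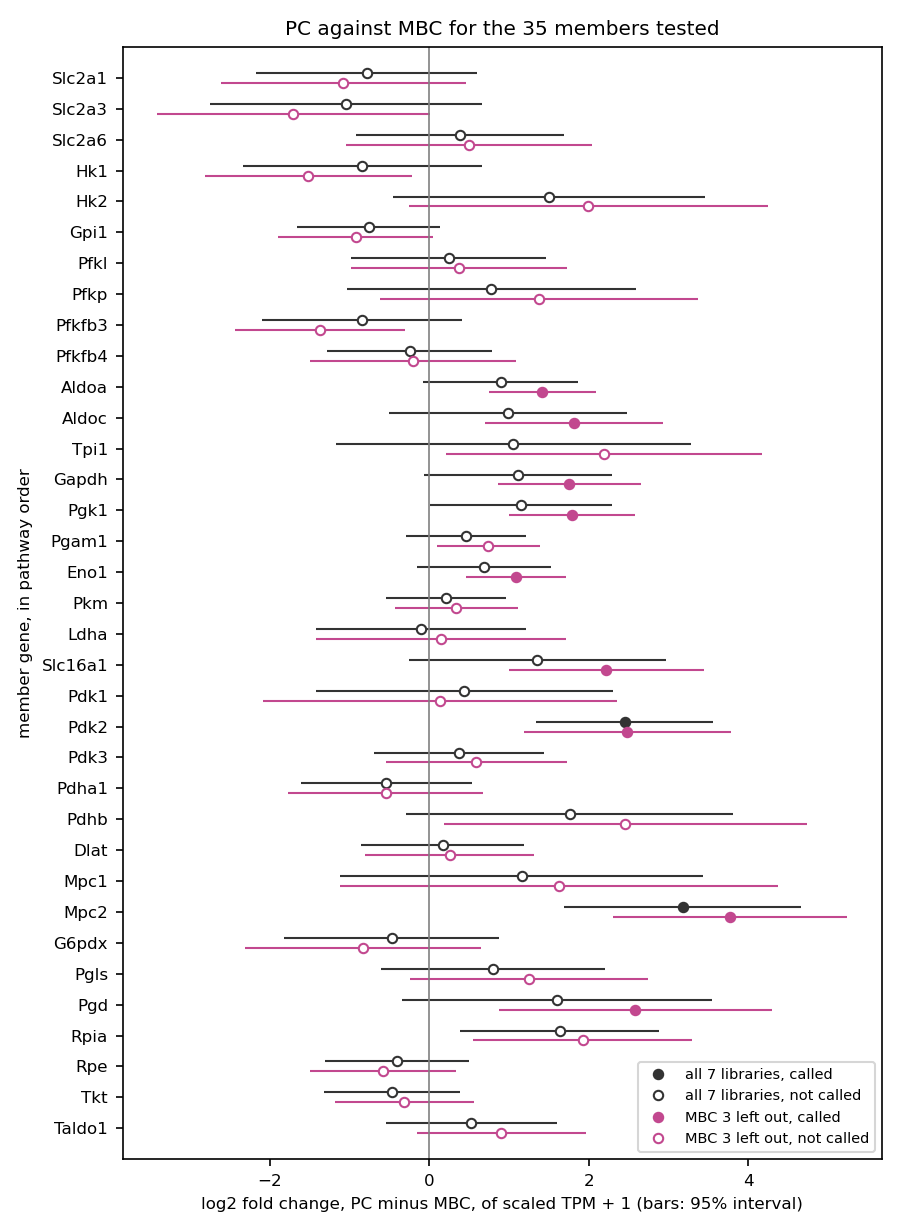
Log2 fold change (PC minus MBC, of scaled TPM + 1) and 95% interval for the 35 members tested, with all 7 libraries (dark) and without MBC3 (pink), where filled points were called. Mpc2 and Pdk2 were called in both, and 7 more members without MBC3. On TPM as deposited, 15 members changed sign.

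Without MBC3, 9 of the 35 members were called higher in PCs, 25.7% beside 13.8% of all genes, and none was called lower, beside 7.94% of all genes. This fit kept the filter of 1 TPM in at least 3 of the 7 libraries. A gene expressed only in MBC1 and MBC2 could not pass it and so could not be called lower. Pdk2, Aldoc and Slc16a1, called higher, reached 1 TPM in neither MBC1 nor MBC2, so the counts in the 2 directions are not on equal terms. To Mpc2 and Pdk2 were added Aldoa (log2 fold change 1.42, SE 0.29, limma adjusted p = 0.0136), Aldoc (1.81, adjusted p = 0.0339), Gapdh (1.76, adjusted p = 0.0180), Pgk1 (1.79, adjusted p = 0.0106), Eno1 (1.09, adjusted p = 0.0272), Slc16a1 (2.22, adjusted p = 0.0232) and Pgd (2.58, adjusted p = 0.0425). The median log2 fold change of lower glycolysis was then 1.59, beside 0.19 for all genes. Within the more frequent title prefix, which also leaves out MBC3 and further leaves out PC4, only Mpc2 and Pgk1 passed. The 7 added calls were thus absent with all 7 libraries and rested on MBC1 and MBC2 once MBC3 was left out. All of them but Pgk1 were lost when PC4 was left out too. Among 35 members, MBC3 lay within the PC range for 23, against 13 for MBC1 and 6 for MBC2.

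Proliferation genes were likewise higher in MBC3 than in MBC1 and MBC2. The 8 tested genes of lower glycolysis and Eno2 summed to 426, 641 and 1608 scaled TPM in MBC1 to MBC3 and 1056 to 1748 in PCs, beside the proliferation sums given above. Gapdh alone gave 206, 388 and 1076 scaled TPM of these sums in MBCs and 644 to 1199 in PCs. Of the proliferation genes, Mki67 read 41.2, 62.02 and 269 in MBCs and 188 to 238 in PCs. None of the 10 proliferation genes was called with all libraries, and 5 were called higher without MBC3. Their part in the result was not tested.

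**Figure D4:**
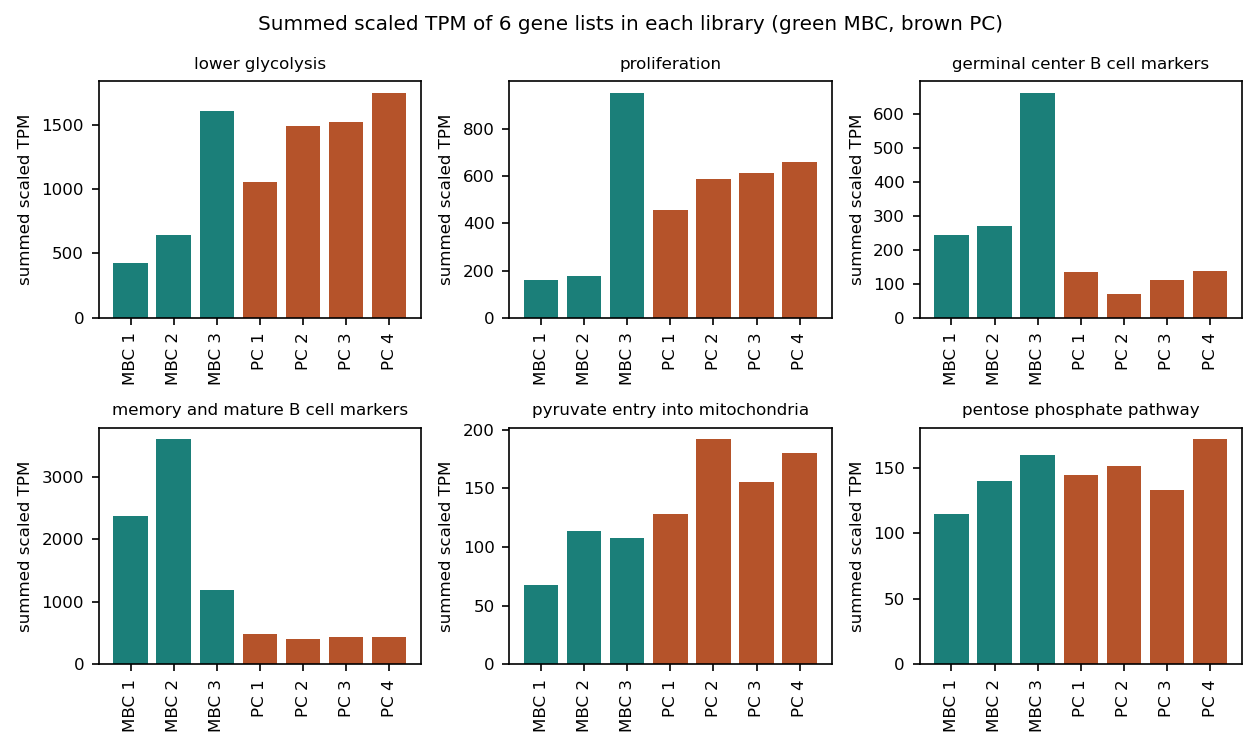
Summed scaled TPM of 6 gene lists in each library (green, MBC; brown, PC). MBC3 stood with the PCs for lower glycolysis, above them for proliferation (952) and for germinal center markers (664), and between the other MBC libraries and the PCs for memory and mature B cell markers. Gapdh was the largest part of each lower glycolysis sum.

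Gapdh has many near copies in the mouse genome, and 181 annotated genes matched its transcripts at 90% identity or more over at least 50% of their length. Of these, 88 held some TPM, and together they took 11.1, 3.6 and 5.6% of the joint TPM in MBC1 to MBC3 and 5.18 to 5.89% in PCs. The copies Gm10359 and Gm12671 are identical to Gapdh over their full length, so their reads cannot be assigned. Adding all copies to their members left the 2 calls as they were, with Gapdh at an adjusted p of 0.233 in limma.

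Ldha, lactate dehydrogenase A, read 42.6, 270.2 and 182 scaled TPM in MBC1 to MBC3 and 91.1, 117.3, 99.1 and 190.4 in PCs. The groups overlapped fully, with both the lowest and the highest value among MBC libraries (log2 fold change -0.11, SE 0.59, 95% interval -1.43 to 1.21). Ldhb, the heart-type subunit, was listed at 0 in all 7 libraries. Slc16a1, encoding the lactate carrier MCT1, read 0, 0.391 and 6.12 scaled TPM in MBCs and 2.47, 4.86, 6.07 and 5.35 in PCs. Slc16a3, encoding MCT4, read 0.126, 0 and 0.185 in MBCs and 0.661, 0.0893, 0.0615 and 0.502 in PCs. MBC1 thus held only Slc16a3 of the 2 carriers, at a level under the floor of 3 reads.

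In the oxidative branch of the pentose phosphate pathway, Pgd, which yields NADPH and ribulose 5-phosphate, read 0.335, 8.43 and 26.3 scaled TPM in MBCs and 16.9 to 26.7 in PCs. MBC1 and MBC2 were below all PCs. G6pdx, the entry enzyme, read 12.7, 54.6 and 11.9 in MBCs and 7.99 to 23.1 in PCs, and was highest in MBC2. Pgls, the lactonase between them, read 2.46 to 17.9 in MBCs and 10.4 to 22.6 in PCs.

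In the non-oxidative branch, Rpia, which forms ribose 5-phosphate for nucleotides, read 13.8, 2.30 and 11.7 scaled TPM in MBCs and 28.0, 29.2, 25.5 and 20.3 in PCs. Every PC library exceeded every MBC library, and the unadjusted test passed, but the adjusted one did not (log2 fold change 1.63, SE 0.56, limma adjusted p = 0.110, and 0.0542 without MBC3). Rpe, the epimerase, read 17.3 to 35.1 scaled TPM in MBCs and 13.6 to 21.3 in PCs, and Tkt, transketolase, 19.8 to 34.6 and 14.9 to 25.3. Taldo1, transaldolase, read 10.0 to 39.9 and 28.5 to 41.4. The 7 genes together summed to 114 to 160 scaled TPM in MBCs and 133 to 172 in PCs.

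Where a step has several isoforms, their shares of the step's TPM do not depend on how libraries are scaled. One isoform of each of 8 families was tested by the exact two-sided permutation test over 35 assignments. Its smallest possible p is 0.0286, and 0.229 for a single share after adjustment over the 8, so one share alone could not pass the adjusted test. The smallest p among the 8 was 0.0571, for Eno2 in the joint TPM of Eno1 and Eno2 (4.63, 18.8 and 0.13% in MBCs, 0 to 0.57% in PCs). Eno3, an enolase of the wider list, was left out of this share. It read 13.8, 13.0 and 1.31 scaled TPM in MBC1 to MBC3 and 0 to 3.18 in PCs. Pdk1 was the tested share of its family, and the share of Pdk2, which did not overlap between the groups, was not among the 8. Pfkp made up 78.1, 43.3 and 83.1% of phosphofructokinase TPM in MBCs and 63.4 to 87.0% in PCs, and Aldoc at most 4.28% of the aldolases in any library.

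**Figure D5:**
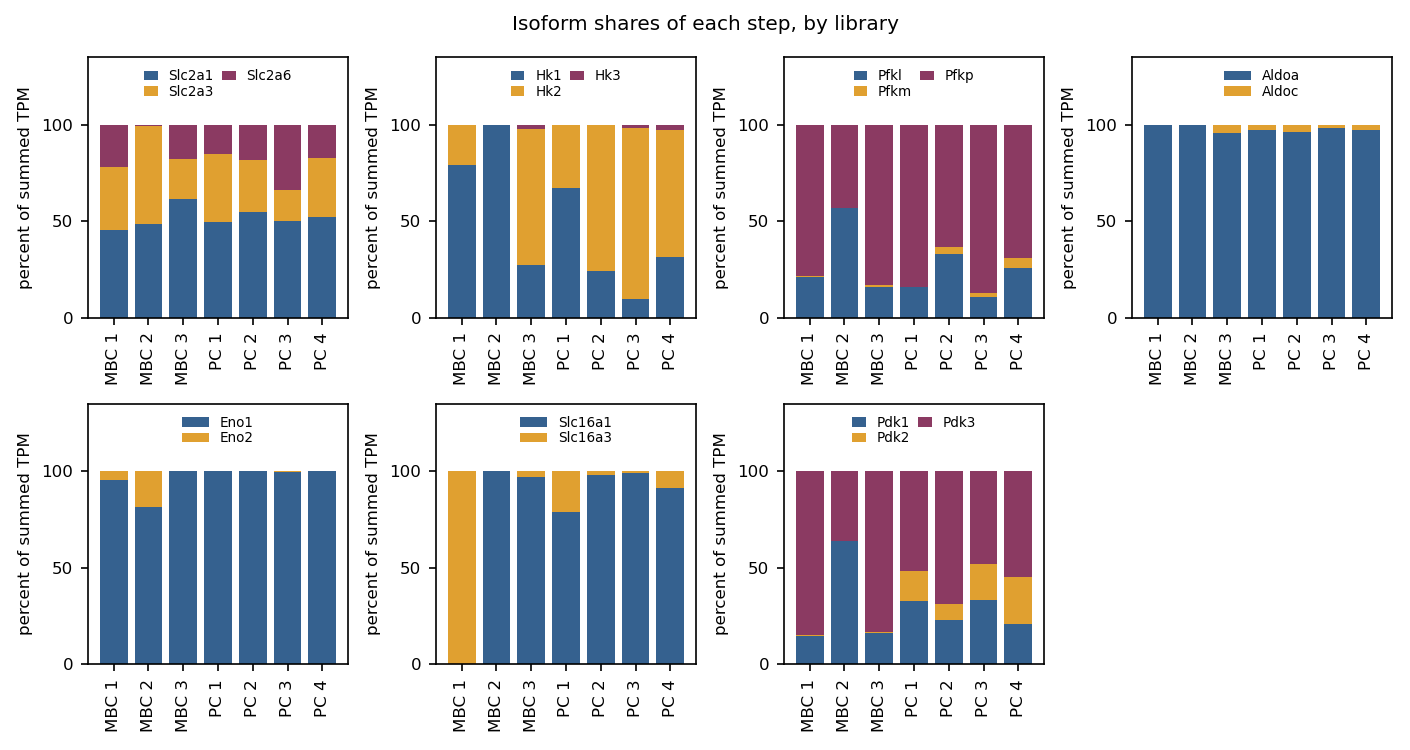
Share of each isoform in the summed TPM of its step, in percent, for 7 steps and 7 libraries, with lactate dehydrogenase left out because Ldhb was listed at 0. Hk1 made up most of the hexokinase in MBC1, MBC2 and PC1 and Hk2 in the other libraries, and Pdk2 was visible in PCs and nearly absent from MBCs.

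The spread between libraries was larger in MBCs. The median SD of log2(scaled TPM + 1) over the 35 tested members was 1.12 in MBCs and 0.38 in PCs, and it was larger in MBCs for 31 members. For 20 members MBC1 and MBC2 differed from each other by more than 1 on that scale. From the steps of low values, 1 TPM of a 1-kb transcript corresponded to about 6.23, 6.93 and 11.6 reads in MBC1 to MBC3 and 9.36 to 16.4 in PCs, so the shallowest libraries were MBC1 and MBC2, with floors of 0.264 and 0.292 scaled TPM. MBC1 to MBC3 had 12983, 11527 and 18061 genes above 0, and PCs 14463 to 16768. Mitochondrial transcripts held 33.2, 33.5 and 19.7% of TPM in MBC1 to MBC3 and 8.1 to 9.8% in PCs. The part of library quality in the results was not tested.

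Enzymes that lead out of glycolysis were counted as well. Among 31 genes of branches from glycolysis 26 were tested, of which 2 rose in PCs and none fell (7.69% higher, beside 6.41% of all genes). Their median log2 fold change was 0.86, beside 0.14 for all genes. Gfpt1, the entry enzyme of the hexosamine pathway that supplies sugars for glycosylation, read 17.1, 5.21 and 11.9 scaled TPM in MBCs and 114.7, 68.0, 94.9 and 63.4 in PCs (log2 fold change 2.89, SE 0.45, limma adjusted p = 0.00328), and it kept its call under all 17 alternatives. Gbe1, the glycogen branching enzyme, read 0.450, 0 and 1.33 in MBCs and 5.95 to 7.73 in PCs (2.34, SE 0.50, adjusted p = 0.0184, and 0.00867 without MBC3), a call lost under 7 of 17 alternatives. Without MBC3, 9 of the 26 were called higher (34.6%, beside 13.8% of all genes).

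Among 24 regulators of glycolysis 18 were tested and none was called in either direction by limma, with 4 at an unadjusted p under 0.05 and a median log2 fold change of -0.21. Hif1a, the oxygen-regulated factor, read 17.8, 16.8 and 22.1 scaled TPM in MBCs and 7.66 to 12.2 in PCs, without overlap (log2 fold change -0.89, limma adjusted p = 0.202). Myc read 45.5, 29.1 and 22.0 in MBCs and 10.5 to 39.8 in PCs. Egln3, which did not pass the filter, was listed at 0 in every MBC library and read 1.01 to 4.06 scaled TPM in PCs. Without MBC3, 2 of the 18 were called lower, beside 7.94% of all genes. They were Max (Myc's partner) and Akt1, a kinase of the insulin and growth factor pathway. Among 32 further isoforms and partners 12 were tested, and Pfkfb2 was the 1 called with all libraries (8.33%, beside 6.41% of all genes called higher). Without MBC3, 2 of the 12 were called higher (16.7%, beside 13.8% of all genes). Eno3 was then called lower (log2 fold change -3.24, limma adjusted p = 0.0166).

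Markers of other cells also differed between the groups. Of 8 T cell markers 4 were tested and 3 (Cd3e, Trac and Il7r) were called higher in PCs, with and without MBC3. The list summed to 0.128 to 24.1 scaled TPM in MBCs and 23.7 to 44.9 in PCs, with 2 to 7 of the 8 at 0 in MBC libraries and 0 to 3 in PC libraries. Of 8 myeloid markers 5 were tested and Fcer1g was called higher (limma adjusted p = 0.0341), a call lost without MBC3 (0.0626), where Csf1r was called lower (0.0465). That list summed to 6.10 to 49.5 in MBCs and 67.6 to 125.8 in PCs, with S100a9 at 0 in every library and 3 of the 8 at 0 in each MBC library. The part of such cells in the changes of Mpc2 and Pdk2 was not tested. The 4 platelet markers summed to at most 1.40 scaled TPM in any library and none was tested.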

How the data were processed

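The authors deposited 1 table of TPM values for 7 libraries of total RNA, prepared with a NuGEN cDNA kit for an Illumina HiSeq. The submitters' processing notes name STAR 2.5.2a, RSEM 1.3.0, DESeq2 1.18.1 and the build GRCm38, and the annotation release is not given in the sources used here. Ensembl identifiers were matched to GENCODE M21 symbols (48435 of 48795), and coordinates are from that annotation. Promoter windows came from RefSeq on GRCm38.p6.

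TPM sums to the same total in every library, and immunoglobulin transcripts held 49.4 to 55.9% of it in PCs and 1.65 to 3.16% in MBCs. A scaling factor was therefore taken for each library as the median, over 9305 genes detected in all 7, of TPM relative to the gene's geometric mean, and TPM was divided by it. Genes at 1 TPM or more in at least 3 libraries (11573) were fitted in limma 3.58.1 (R 4.3.3, with a mean-variance trend) on log2(scaled TPM + 1), with Benjamini-Hochberg adjustment over all of them. Fold changes on this scale understate those of low genes. Isoform shares were tested in Python 3.11.15 by exact two-sided permutation. Near copies were found with blastn 2.17.0. The table holds no read counts, so relative depth was read from the spacing of low TPM values, and floors of 3 reads cover counting error only. The scripts were tested on simulated data. In simulated libraries with one spread per gene for both groups, limma called 82 of 100 changes of log2 size 4. It called 25 of 100 changes of log2 size 2, and 2 of 11373 unchanged genes. A member that was not called may therefore still differ. The simulation did not copy the larger spread of the MBC group.

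All members were described by step, with values in every library for called members and for each isoform of a step that has several, and level ranges or values for the rest. From the wider lists, called genes were named and most of the rest only counted. Some genes not called with all libraries were named too, among them Hif1a, Myc, Egln3, Vegfa, Ero1l, Ndrg1, Ddit4, Kdm3a and Eno3. They were picked by hand and do not stand for their lists. The members and lists were chosen with earlier results of these data known. Replicate numbers were checked for pairing, and the deviations of same-numbered libraries correlated at r of 0.11, -0.04 and -0.08. Those of libraries that share a title code correlated at 0.11, -0.004 and 0.22, beside -0.18 to 0.15 for pairs with different codes. So few libraries cannot settle whether a shared code marks one animal. Neither was used to pair the libraries in the main fit. Alternatives were other scalings, pseudocounts and filters, each library left out, the more frequent title prefix, replicate and title code blocks, library weights and the addition of near copies.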

Additional observations from a re-analysis of the deposited data

Results flagged for a closer look

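In 46 sets of 4 PC values (members and isoform shares), 4 had one library whose gap to the others exceeded the 95% critical value of Dixon's test, where chance flags about 1 in 20, or 2.3 sets. Pfkfb4 read 1.59 scaled TPM in PC2 against 0 to 0.0558 in the other PC libraries. Eno2 read 0.664 scaled TPM in PC3 against 0 to 0.0446, and its share of the joint TPM of Eno1 and Eno2 there was 0.57% against 0 to 0.04%. Dlat read 7.02 scaled TPM in PC1 against 5.62 to 5.84. The MBC group of 3 libraries was too small for this rule.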

How the results depend on the processing

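Mpc2 and Pdk2 kept positive log2 fold changes under all 17 alternatives, from 2.03 to 3.82 and from 2.00 to 5.07, with adjusted p from 0.00653 to 0.0820 and from 0.00984 to 0.137. With each library left out in turn, 1 to 9 members were called higher and none lower. Of all 11573 genes, 451 (without PC2) to 1592 (without MBC3) were then called higher and 91 to 919 lower. The count of members called higher was 9 without MBC3 and 1 without PC2 or PC3 (451 and 486 of all genes). It was 1 on TPM as deposited (Pdk2), 1 under library weights (Mpc2, an alternative chosen after seeing the data) and 1 with the title code as a block (Mpc2). Over all genes, 472, 611 and 434 were called higher under these settings, beside 742 in the main fit. With no filter the member count was 0, over 39 members and 21326 genes, of which 437 were called higher. With the replicate block the member count was 0 (adjusted p = 0.0646 for Mpc2 and 0.121 for Pdk2 in limma, 390 genes higher and 60 lower in all, beside 742 and 248). The correlations did not show that replicate numbers pair the samples. On TPM as deposited 8 members were called lower (Gpi1, Pfkfb3, Pkm, Slc2a1, Pdha1, G6pdx, Rpe and Tkt), where 3018 of all genes were lower and the all-gene median was -0.91. There the log2 fold changes turned negative for Slc2a6 (-0.47), Pfkl (-0.84), Pfkp (-0.42), Aldoa (-0.41), Tpi1 (-0.06), Gapdh (-0.21), Pgk1 (-0.14), Pgam1 (-0.85), Eno1 (-0.62), Pkm (-1.10), Pdk1 (-0.64), Pdk3 (-0.87), Dlat (-0.98), Pgls (-0.40) and Taldo1 (-0.76). Quantile normalization turned Slc2a6 (-0.06), Pfkl (-0.10), Gapdh (-0.38) and Dlat (-0.06), removal of immunoglobulin genes turned Pkm (-0.08) and Dlat (-0.09), and library weights turned Pfkfb4 (0.19) and Ldha (0.19). Leaving out 1 library turned Slc2a6 (-0.06 to 0.73), Pfkl (-0.17 to 0.53), Pfkp (-0.37 to 1.38), Dlat (-0.02 to 0.26), Mpc1 (-0.25 to 2.09), G6pdx (-0.84 to 0.22) and Taldo1 (-0.04 to 0.90), each without MBC2. It turned Tpi1 (-0.30 to 2.19), Pdk1 (-0.40 to 1.57) and Pdk3 (-0.08 to 0.59) without MBC1, and Ldha (-0.89 to 0.43) without MBC2, MBC3 or PC1. The causes were not tested. Depth limits what can be said of genes near the floors of 3 reads, 0.126 to 0.394 scaled TPM, of which the highest was in PC3.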

Other observations

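Among 14 genes that respond to low oxygen outside glycolysis, 8 were tested. Ankrd37 was the 1 of the 8 called, lower in PCs, beside 2.14% of all genes called lower. It read 12.1, 29.9 and 8.995 scaled TPM in MBC1 to MBC3 and 0.404 to 2.56 in PCs (log2 fold change -2.80, limma adjusted p = 0.0183, and 0.0120 without MBC3). The call was lost under 7 of 17 alternatives, with adjusted p up to 0.113. Of the 8 tested genes, 5 had positive log2 fold changes, and the median was 0.48. Beside Ankrd37, Ddit4 (-0.30) and Kdm3a (-0.41) were negative. Vegfa, which did not pass the filter, was listed at 0 in every MBC library and read 0.701 to 3.71 scaled TPM in PCs. Ndrg1, also not tested, went the other way on average, at 0.0329 to 6.01 scaled TPM in MBCs and 0.0472 to 1.03 in PCs. Ero1l, which encodes an oxidase of the endoplasmic reticulum, read 1.87 to 7.90 scaled TPM in MBCs and 17.0 to 19.2 in PCs, without overlap, and missed the threshold (log2 fold change 1.81, limma adjusted p = 0.0523). Without MBC3, Ero1l was called higher (1.93, limma adjusted p = 0.0336). It was then the 1 of the 8 called higher, beside 13.8% of all genes, and Ankrd37 the 1 called lower, beside 7.94%. A partial Gapdh pseudogene, Gm29164, held 26.3 TPM in MBC1 and was listed at 0 in the other 6 libraries.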
